A study of Homo sapiens with 52 samples.

Results

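The genes described here encode the proteins that coat nascent transcripts and choose splice sites. They are 38 of the 63241 genes in the count table, picked by symbol. There are 17 heterogeneous nuclear ribonucleoproteins (hnRNPs) outside the A group: HNRNPAB, HNRNPC, HNRNPD, HNRNPDL, HNRNPF, HNRNPH1, HNRNPH2, HNRNPH3, HNRNPK, HNRNPL, HNRNPLL, HNRNPM, HNRNPR, HNRNPU, HNRNPUL1, HNRNPUL2 and SYNCRIP. With them come the poly(C)-binding proteins PCBP1 and PCBP2, the polypyrimidine tract-binding (PTB) proteins PTBP1, PTBP2 and PTBP3, and 12 serine/arginine-rich (SR) proteins, SRSF1 to SRSF12. The last 4 are the SR-related genes TRA2A, TRA2B, RBM39 and SRRM4. All 38 were found, and all passed the filter on low counts in each of the 12 comparisons.

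RNA was sequenced from i3Neurons, which form when doxycycline induces neuronal differentiation of the human induced pluripotent stem cell line WTC11. The cells were moved on day 3 to Boyden chamber inserts, whose membrane has pores of 1 µm that neurites can cross, and were collected on day 17 as a soma and a neurite fraction. Untreated cells carried no single guide RNA (sgRNA) and gave 4 libraries per fraction. In the HNRNPA1 experiment, cells carried either an sgRNA for CRISPR interference against HNRNPA1 or a non-targeting sgRNA, with 6 libraries per group and fraction. In the TDP-43 experiment, cells carried an sgRNA against TDP-43, the product of TARDBP, or a non-targeting one, with 5 libraries per group and fraction. All libraries are total RNA libraries from 10 ng of RNA, made with version 2 of the kit for untreated cells and version 3 for the rest. The sources used here do not say how many clones or transductions each group comes from, nor that libraries of a group are separate cultures. The p-values therefore measure only how far these libraries vary, and that variation may be technical.

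hnRNPs bind pre-mRNA as it is made and often repress nearby splice sites, whereas SR proteins bind exonic enhancers and recruit the splicing machinery. Many of these genes hold a "poison" exon or a regulated intron, through which a protein can lower its own message by nonsense-mediated decay. In neurons the family is known for the replacement of PTBP1 by PTBP2 during differentiation and for SRRM4, which promotes the inclusion of neuronal microexons. Several of these proteins, among them SYNCRIP, HNRNPR, HNRNPK and the PCBPs, also bind messages in the cytoplasm and act on their transport, stability or translation.

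A pyrimidine run at the transcription start is known from messages of the translation machinery. For that reason start windows are shown of PCBP2, HNRNPM and HNRNPC, called higher in neurites, and of SRSF5 and SRSF6, called lower. Each line gives 30 bases, 10 before and 20 from the start site on, from RefSeq on GRCh38.p14, 5′ to 3′ on the strand of the gene. Capitals mark a run of 5 or more C or T letters that reaches within 10 bases of the start on either side.
PCBP2, chr12:53452092-53452121, + strand: ccgTCCCCCTCCCagaccagcagaggcagc
HNRNPM, chr19:8444965-8444994, + strand: ccgttcgctcacacaaagcccagacgcgga
HNRNPC, chr14:21269423-21269452, − strand: cctcggcggcagaggagactcgggggccat
SRSF5, chr14:69767132-69767161, + strand: tgctaagtgcgtcagttgtggagtggcgta
SRSF6, chr20:43457886-43457915, + strand: cgcgcgcgccattgtgtggctggactcggc
Of these 5 only PCBP2 has such a run. The search read the strand of the gene alone. A run is present in 37.3% of all 35116 starts of that table, and in 36% of the 50 starts of the members (18 starts in 14 of the 35 members with an entry). A match describes the letters of the window and is no evidence of a site in use.

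Of 52 libraries, 51 entered the fits. TDP-43 knockdown soma sample 5, with 541 counts in total, was not used, so that group has 4 libraries. The rest held from 2.54 (an untreated neurite library) to 28.9 counts in units of 1000000 (a TDP-43 knockdown soma library). HNRNPA1 changed by a log2 value of −1.36 ± 0.06 (SE) in soma and −1.55 ± 0.06 in neurites in its knockdown. TARDBP changed by −2.50 ± 0.07 and −1.48 ± 0.06 in its own. Levels below are counts per 1000000 of TMM-scaled library size (CPM), scaled within each experiment, so levels of different experiments are only set side by side. Control neurite sample 4 of the TDP-43 experiment stands apart, with a TMM factor of 0.601 against 0.742 to 0.913 in the other 4 libraries of its group. TDP-43 knockdown neurite sample 2 has a factor of 0.644, against 0.808 to 0.967 in its group. The share of counts from 7SL RNA genes was 27.4% in control neurites and 14.4% in knockdown neurites of that experiment, with single libraries from 17.2 to 45.7% and from 5.65 to 31.7%.

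Neuronal markers summed to 7518 CPM in untreated soma and 24012 CPM in untreated neurites. Of the 10, 5 were called higher in these neurites and 3 lower. The neurofilament genes NEFL (1500 against 8060 CPM) and NEFM (2174 against 9377 CPM) gave most of the sum, while the mean levels of TUBB3, SNAP25, RBFOX3 and SLC17A6 were lower in neurites (TUBB3 14.6 against 8.55 CPM). The 8 pluripotency markers summed to 31.5 CPM (untreated soma) to 54.8 CPM (TDP-43 control neurites) on group average, with PODXL reaching 39.8 CPM in 1 library and SOX2 13.4 CPM, while the defining gene POU5F1 stayed at or under 1.244 CPM in every library. The 8 mesenchymal markers summed to 28.3 CPM in untreated soma and 14.3 CPM in untreated neurites, and to 3.17 to 7.73 CPM in the other groups. Among these COL1A2 reached 9.05, ACTA2 8.71 and LUM 1.03 CPM. Cycling-cell markers were higher in neurites for 5 of 7 tested genes in untreated cells (1 lower), for 6 of 6 in the HNRNPA1 controls and for 7 of 7 in the TDP-43 controls. Their summed level was 42.5 against 82.5 CPM (soma against neurites), 16.5 against 35.0 CPM and 12.7 against 31.3 CPM. Neural progenitor markers summed to 93.5 against 256 CPM, 268 against 529 CPM and 225 against 404 CPM. NES made up most of each difference (41.0 against 156, 220.9 against 465.1 and 192.1 against 361.4 CPM). Other markers of this list went the other way. Mean levels of PAX6, HES1, HES5 and ID1 were lower in untreated neurites. Those of HES5, FABP7 and SOX9 were lower in neurites of both control sets, and that of VIM in TDP-43 control neurites. The part of these markers in the fraction ratios was not tested. In bulk RNA, fewer cells of a type and less RNA per cell cannot be told apart.

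In untreated cells the members split: PCBP2, RBM39, HNRNPM and SRSF4 were far higher in neurites, and SRSF2, SRSF5, SRSF1 and SRSF6 were lower. By the edgeR test 13 of 38 were higher and 12 lower in neurites (adjusted p under 0.05), against 56.5% of all genes called in either direction, 28.7% higher and 27.8% lower. These counts lie near the shares over all genes, so the split was not particular to the members. The members' median log2 ratio was −0.04, beside −0.21 over all genes, and 7 members passed a 2-fold difference. Of the hnRNPs 6 of 17 were higher and 4 lower. Of the SR proteins 2 of 12 were higher and 6 lower. Among control cells of the HNRNPA1 experiment 13 members were higher and 4 lower. Of all genes 48.4% were called there, 23.5% higher and 24.9% lower. In the TDP-43 controls 9 members were higher and 9 lower, beside 46.5% of all genes called, 24.1% higher and 22.3% lower. The 38 log2 ratios of untreated cells had a standard deviation of 0.80, while those of the HNRNPA1 and TDP-43 controls had 0.22 and 0.25. Scaling by total counts in place of TMM moves the median of all genes from −0.21 to −1.43 in untreated cells, and to −0.40 and −0.63 in the HNRNPA1 and TDP-43 controls. It then leaves 3, 2 and 1 members higher and 33, 25 and 35 lower, so a direction here is relative to the bulk of messages. Over all genes this scaling gave 2041 higher and 14924 lower of 18556, 1911 and 12129 of 19812, and 1891 and 14536 of 22014.

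**Figure D1:**
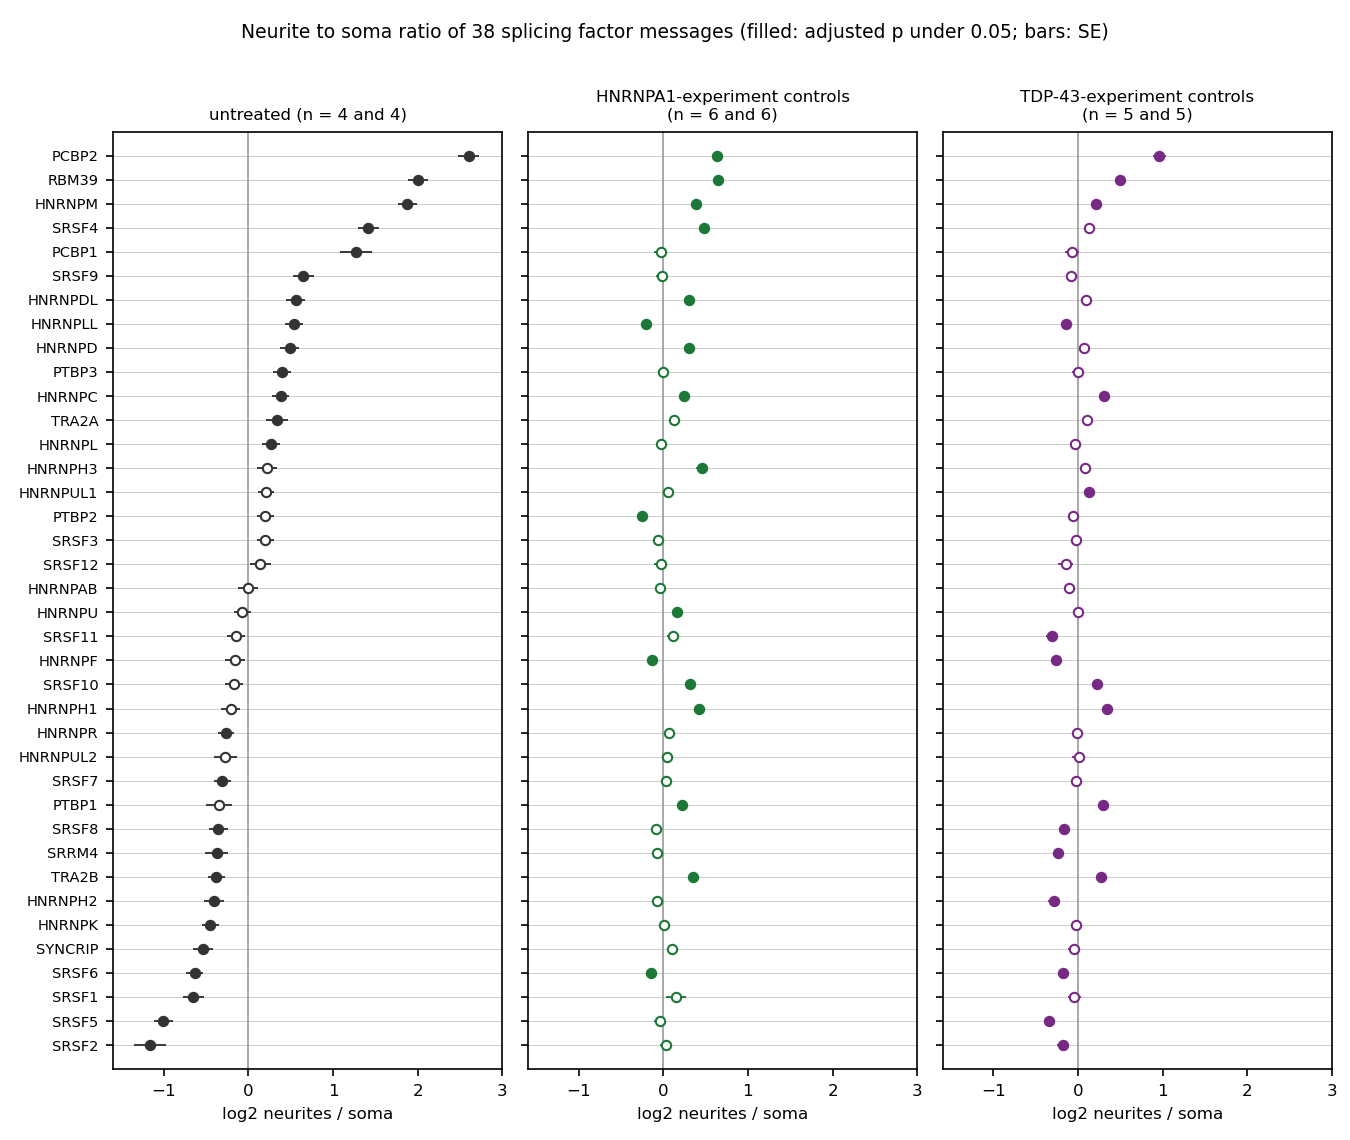
Log2 neurite to soma ratio (x axis, with SE) of each member gene in untreated cells and in the non-targeting controls of both knockdown experiments, ordered by the untreated ratio. Filled points passed an edgeR adjusted p under 0.05. PCBP2 (2.60), RBM39 (2.00) and HNRNPM (1.88) lead in untreated cells, SRSF2 (−1.16) and SRSF5 (−1.01) lie lowest, and the control ratios of these 5 lie closer to 0. Small and moderate positive ratios, among them that of SRSF9 in untreated cells, can turn negative when libraries are scaled by total counts.

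Among the hnRNPs, HNRNPM, which acts on alternative exons, had the largest neurite ratio in untreated cells. Its soma libraries held 94.0, 81.0, 112 and 81.0 CPM and its neurite libraries 367, 374, 301 and 317 CPM. All neurite libraries lay above all soma libraries, with a log2 ratio of 1.88 ± 0.12 (SE; edgeR adjusted p = 7.46e-12). In HNRNPA1 control cells it ran from 154 to 171 CPM in soma (median 162) and from 198 to 229.7 CPM in neurites (median 211), again without overlap (0.39 ± 0.05, edgeR adjusted p = 5.55e-08). In the TDP-43 controls the ratio was 0.21 ± 0.05 (edgeR adjusted p = 0.00136), and it turned to −0.39 with scaling by total counts.

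HNRNPC, which packages nascent transcripts and binds uridine tracts, was called higher in neurites in all 3 sets of cells. Its untreated soma libraries held 264, 232, 257 and 300.4 CPM and its neurite libraries 354, 372, 312 and 335 CPM. These groups do not overlap, and the log2 ratio was 0.38 ± 0.10 (edgeR adjusted p = 0.0038). Among the HNRNPA1 controls soma ran from 208 to 232 CPM (median 228) and neurites from 248 to 280.5 CPM (median 267). In TDP-43 control cells, soma libraries held 188, 181, 199.6, 169.9 and 172 CPM and neurite libraries 227, 215, 248, 225 and 217 CPM. Neither pair of groups overlaps, with log2 ratios of 0.24 ± 0.05 (edgeR adjusted p = 0.000115) and 0.31 ± 0.05 (edgeR adjusted p = 2.4e-05). Under scaling by total counts all of these HNRNPC ratios turned negative (−0.86, −0.11 and −0.31).

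The splicing regulators HNRNPH1, HNRNPH2 and HNRNPH3 bind G-rich runs and did not share a pattern. HNRNPH1 held 266, 212, 272 and 212 CPM in untreated soma and 204, 239, 188 and 202 CPM in untreated neurites, groups that overlap (−0.21, edgeR adjusted p = 0.108). In the HNRNPA1 controls its soma libraries ran from 278 to 318 CPM and its neurite libraries from 363 to 417 CPM (0.42 ± 0.05, edgeR adjusted p = 1.82e-08). Among the TDP-43 controls it held 269, 264, 258, 254 and 262 CPM in soma and 344, 316, 357, 303 and 343 CPM in neurites. Both control sets separate without overlap, the second with a ratio of 0.35 ± 0.05 (edgeR adjusted p = 4.23e-06), which turned to −0.27 with scaling by total counts. HNRNPH3 was called in the HNRNPA1 controls alone, with 108 to 128 CPM in soma (median 115) and 146 to 174 CPM in neurites (median 162), a log2 ratio of 0.46 ± 0.06 (edgeR adjusted p = 4.37e-07). HNRNPH2 went the other way in untreated cells, with 42.2, 38.2, 45.4 and 38.9 CPM in soma and 29.7, 28.2, 30.8 and 34.6 CPM in neurites (−0.41 ± 0.12, edgeR adjusted p = 0.0054). Its call ended without neurite sample 4, 5 or 6 (edgeR adjusted p = 0.0765, 0.0772 and 0.0777). In the TDP-43 controls HNRNPH2 held 54.1, 50.5, 50.4, 49.02 and 42.9 CPM in soma and 44.9, 36.7, 39.6, 39.8 and 41.1 CPM in neurites, groups that overlap at 1 soma library (−0.29 ± 0.07, edgeR adjusted p = 0.000674). Exons of HNRNPH2 overlap a readthrough transcript on the same strand, so counts may be shared between them.

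HNRNPF, a close relative of the H proteins, was lower in neurites in both control sets. Its libraries ran from 86.2 to 101 CPM in soma (median 90.9) and from 78.9 to 88.3 CPM in neurites (median 84.6) of the HNRNPA1 controls, with overlap (−0.14 ± 0.05, edgeR adjusted p = 0.0356). In TDP-43 control cells it held 75.7, 80.3, 72.3, 75.8 and 76.3 CPM in soma and 62.0, 58.1, 67.5, 67.8 and 63.3 CPM in neurites, without overlap (−0.26 ± 0.05, edgeR adjusted p = 0.000187). The first of these calls ended in 6 of the 24 fits that each left out 1 library. HNRNPLL, a paralog of HNRNPL known from splicing in lymphocytes, was called in opposite directions, as was TRA2B. HNRNPLL held 46.0, 41.0, 49.2 and 48.7 CPM in untreated soma and 75.8, 72.3, 61.9 and 61.1 CPM in untreated neurites, without overlap (0.54 ± 0.11, edgeR adjusted p = 0.000227). In HNRNPA1 control cells it ran from 49.6 to 53.7 CPM in soma and from 38.9 to 48.6 CPM in neurites, lower without overlap (−0.20 ± 0.05, edgeR adjusted p = 0.00123). Among the TDP-43 controls the ratio was −0.14 ± 0.06 (edgeR adjusted p = 0.0366), a call lost in 6 of 19 fits without 1 library, with an edgeR adjusted p of up to 0.124 (without control neurite sample 6). The untreated ratio of HNRNPLL turned to −0.70 with scaling by total counts.

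The other hnRNPs moved less. In untreated cells HNRNPDL (0.56 ± 0.11), HNRNPD (0.49 ± 0.11), both AU-rich element binders, and HNRNPL (0.27 ± 0.11) were higher, and all 3 ratios turned negative with scaling by total counts. HNRNPDL (0.31 ± 0.06) and HNRNPD (0.30 ± 0.06) were also called higher in the HNRNPA1 controls, where they turned to −0.043 and −0.052. SYNCRIP (−0.54 ± 0.12), HNRNPK (−0.45 ± 0.10) and HNRNPR (−0.27 ± 0.09) were lower, and were not called in either control set. The calls of HNRNPL and HNRNPR ended in 4 and 5 of the 8 fits without 1 library. HNRNPAB and HNRNPUL2 were called in none of the 3 sets. HNRNPU was called in HNRNPA1 controls (0.16 ± 0.05, −0.19 with total counts) and HNRNPUL1 in the TDP-43 controls (0.14 ± 0.05, −0.47 with total counts). The HNRNPUL1 call was lost in 10 of 19 fits without 1 library.

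Both poly(C)-binding proteins were higher in untreated neurites, with a summed level of 107 ± 12.1 CPM in soma and 611 ± 96.99 CPM in neurites (SD, n = 4 each). PCBP2, which acts on message stability and translation, lies on hg38 chromosome 12 from 53452102 to 53481162. Its soma libraries held 107, 86.6, 89.1 and 103 CPM in untreated cells and its neurite libraries 702, 598, 478 and 566 CPM. The lowest neurite library was far above the highest soma library, with a log2 ratio of 2.60 ± 0.12 (edgeR adjusted p = 6.55e-14). Among the HNRNPA1 controls PCBP2 ran from 108 to 132 CPM in soma (median 120.4) and from 167 to 202 CPM in neurites (median 188), without overlap (0.64 ± 0.06, edgeR adjusted p = 9.24e-11). In the TDP-43 controls it held 92.4, 109, 96.9, 98.4 and 89.0 CPM in soma and 192, 207, 146, 197 and 198 CPM in neurites (0.96 ± 0.07, edgeR adjusted p = 1.61e-11). The lowest of these neurite libraries is sample 4, which still lies above every soma library. Exons of PCBP2 overlap other annotated transcripts, and 54.9% of its nonzero values are fractional, so some of its reads were divided between genes. This limit is not particular to PCBP2. Shares were higher for HNRNPC (80.4%), RBM39 (68.6%) and HNRNPM (55.8%), and lower for others such as HNRNPUL2 (5.88%). Exons of HNRNPC and RBM39 overlap no other annotated exons.

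PCBP1 is an intronless relative of PCBP2. It held 13.7, 7.46, 10.8 and 9.18 CPM in untreated soma and 32.2, 24.3, 21.2 and 24.9 CPM in untreated neurites, without overlap (1.27 ± 0.19, edgeR adjusted p = 6.55e-06). It was not called in either control set.

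The PTB proteins did not change together. PTBP1, the repressor that neurons switch off, held 25.5, 23.0, 23.2 and 19.9 CPM in untreated soma and 13.3, 21.1, 20.5 and 16.7 CPM in neurites, groups that overlap (−0.35 ± 0.15, edgeR adjusted p = 0.0537). In the HNRNPA1 controls PTBP1 ran from 52.4 to 60.3 CPM in soma (median 57.3) and from 62.0 to 70.4 CPM in neurites (median 67.3), without overlap (0.23 ± 0.05, edgeR adjusted p = 0.000791). In TDP-43 control cells it held 53.6, 56.0, 50.9, 57.6 and 52.7 CPM in soma and 72.5, 65.5, 63.1, 61.6 and 67.8 CPM in neurites, also without overlap (0.29 ± 0.06, edgeR adjusted p = 6.89e-05). Both control ratios of PTBP1 turned negative with scaling by total counts (−0.13 and −0.32).

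PTBP2, the neuronal PTB protein, held 145, 136, 148 and 139 CPM in untreated soma and 166, 190.1, 138 and 164 CPM in untreated neurites, with overlap (0.20, edgeR adjusted p = 0.096). In HNRNPA1 control cells it was lower in neurites, from 141 to 164 CPM in soma (median 143) and from 111 to 136 CPM in neurites (median 125), without overlap (−0.25 ± 0.05, edgeR adjusted p = 0.000132). PTBP3, a broadly expressed relative, was called in untreated cells alone (0.39 ± 0.11, edgeR adjusted p = 0.00441, −0.85 with total counts). Per kb of annotated exons, PTBP2 stood at 3.32 ± 0.31 times PTBP1 in untreated soma and 5.05 ± 1.27 times in untreated neurites (SD, n = 4 each). Among the HNRNPA1 controls the same quotient was 1.39 ± 0.14 in soma and 1.00 ± 0.09 in neurites (n = 6 each), and in the TDP-43 controls 1.29 ± 0.11 and 1.02 ± 0.09 (n = 5 each). PTBP2 thus exceeded PTBP1 most in untreated cells. These cells differ from the others in kit version, in experiment and in carrying no sgRNA, and these cannot be told apart.

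SRRM4, the activator of neuronal microexons, held 110.5, 83.1, 98.9 and 78.8 CPM in untreated soma and 58.8, 76.8, 89.1 and 59.9 CPM in untreated neurites, with overlap (−0.37 ± 0.13, edgeR adjusted p = 0.0233). This call ended without neurite sample 4, 5 or 7 or soma sample 4 (edgeR adjusted p from 0.0773 to 0.237). Among the TDP-43 controls SRRM4 held 259, 259, 245, 248 and 246 CPM in soma and 232, 232, 186, 196 and 221 CPM in neurites, without overlap (−0.23 ± 0.06, edgeR adjusted p = 0.00151). In the HNRNPA1 controls it ran from 206 to 231 CPM in soma and from 196 to 226 CPM in neurites and was not called.

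**Figure D2:**
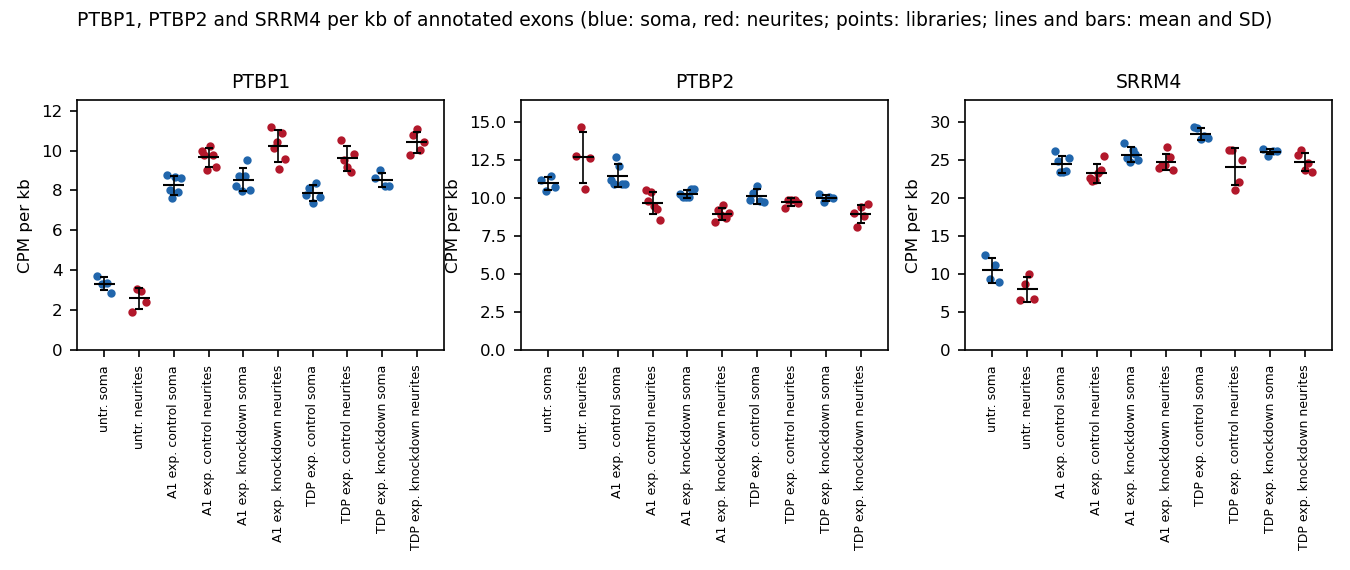
Levels of PTBP1, PTBP2 and SRRM4 in CPM per kb of annotated exons in every library, by group (untr., untreated; A1 exp., HNRNPA1 experiment; TDP exp., TDP-43 experiment), with mean and SD. Soma is blue and neurites are red. PTBP1 averaged 3.33 CPM per kb in untreated soma, beside 8.26 and 7.87 in the control soma of the HNRNPA1 and TDP-43 experiments. Levels are scaled within each experiment.

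Among the SR proteins, SRSF4 was the member with the highest neurite ratio. Untreated soma libraries held 95.2, 67.7, 100.1 and 70.6 CPM of it and neurite libraries 238, 227, 228 and 199.6 CPM, without overlap (1.42 ± 0.12, edgeR adjusted p = 1.93e-09). In HNRNPA1 control cells SRSF4 ran from 89.9 to 100.4 CPM in soma and from 121 to 142 CPM in neurites, also without overlap (0.48 ± 0.06, edgeR adjusted p = 1.34e-07). SRSF9 (0.65 ± 0.13, edgeR adjusted p = 0.000209) was the other SR gene called higher in untreated cells, and its ratio turned to −0.58 with scaling by total counts.

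SRSF2, which recognises exonic enhancers, had the lowest ratio. It held 20.8, 21.2, 22.9 and 23.1 CPM in untreated soma and 11.4, 16.0, 7.95 and 6.52 CPM in untreated neurites, without overlap (−1.16 ± 0.19, edgeR adjusted p = 2.77e-05). SRSF5 held 127, 105, 124 and 114 CPM in untreated soma and 60.7, 71.0, 55.6 and 50.1 CPM in untreated neurites (−1.01 ± 0.11, edgeR adjusted p = 1.09e-07). It was lower in the TDP-43 controls too, with 89.9, 82.3, 93.1, 90.8 and 86.2 CPM in soma and 72.9, 65.5, 78.4, 66.4 and 66.3 CPM in neurites (−0.34 ± 0.06, edgeR adjusted p = 4.86e-05). In neither set do the SRSF5 groups overlap.

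SRSF1, a general splicing activator, held 40.5, 37.9, 41.6 and 34.2 CPM in untreated soma and 23.4, 28.8, 23.9 and 23.2 CPM in untreated neurites, without overlap (−0.65 ± 0.12, edgeR adjusted p = 0.000133). SRSF6 was the member called lower in all 3 sets. It held 102, 92.9, 114 and 103 CPM in untreated soma and 61.9, 73.0, 62.3 and 68.4 CPM in untreated neurites (−0.64 ± 0.10, edgeR adjusted p = 1.79e-05). Among the HNRNPA1 controls it ran from 92.6 to 102 CPM in soma (median 99.4) and from 81.6 to 94.9 CPM in neurites (median 87.1), with overlap (−0.15 ± 0.05, edgeR adjusted p = 0.0186, and 0.0591 without control neurite sample 6). In the TDP-43 controls it held 75.8, 78.8, 83.3, 81.0 and 81.3 CPM in soma and 68.4, 75.6, 63.5, 74.7 and 70.0 CPM in neurites, without overlap (−0.18 ± 0.05, edgeR adjusted p = 0.00578). SRSF11 was lower in the TDP-43 controls, with 131, 121, 128, 127 and 142 CPM in soma and 108, 105, 108, 100.2 and 103 CPM in neurites, without overlap (−0.31 ± 0.07, edgeR adjusted p = 0.000396). SRSF7 and SRSF8 were lower in untreated cells (−0.31 and −0.35), and both calls ended in fits without 1 neurite library. SRSF2 (−0.18 ± 0.07) and SRSF8 (−0.17 ± 0.06) were lower in the TDP-43 controls. SRSF10, known as a repressor of splicing when dephosphorylated, was higher in both control sets (0.32 and 0.23), and both of its ratios turned negative with total counts (−0.04 and −0.38). SRSF3 and SRSF12 were called in none of the 3 sets.

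Among the SR-related genes RBM39, a coactivator that takes part in 3′ splice site choice, was higher in neurites in all 3 sets. Its untreated soma libraries held 262, 219.7, 240.1 and 227 CPM and its neurite libraries 1043, 1065, 802 and 891 CPM, without overlap (2.00 ± 0.12, edgeR adjusted p = 2.16e-12). In the HNRNPA1 controls RBM39 ran from 199 to 241 CPM in soma and from 310.1 to 379.9 CPM in neurites (0.64 ± 0.06, edgeR adjusted p = 9.78e-11). In TDP-43 control cells it held 191, 179, 185, 177 and 188 CPM in soma and 279.6, 254, 271, 234 and 253 CPM in neurites (0.49 ± 0.06, edgeR adjusted p = 6.29e-08, but −0.13 with scaling by total counts). Neither control set overlaps. Of the transformer homologs, which activate exons through GAA-rich elements, TRA2B changed side between sets. It held 170.4, 137, 142 and 149 CPM in untreated soma and 127, 115, 111 and 109 CPM in untreated neurites (−0.38 ± 0.10, edgeR adjusted p = 0.003), a call that ended without neurite sample 6 or 7 (edgeR adjusted p = 0.0605 and 0.0705). In the controls TRA2B was higher in neurites, by 0.36 ± 0.05 in the HNRNPA1 and 0.27 ± 0.05 in the TDP-43 experiment, the second of which turned to −0.35 with total counts. TRA2A was called higher in untreated cells alone (0.34 ± 0.13, edgeR adjusted p = 0.0288, and lost in 3 of the 8 fits without 1 library).

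**Figure D3:**
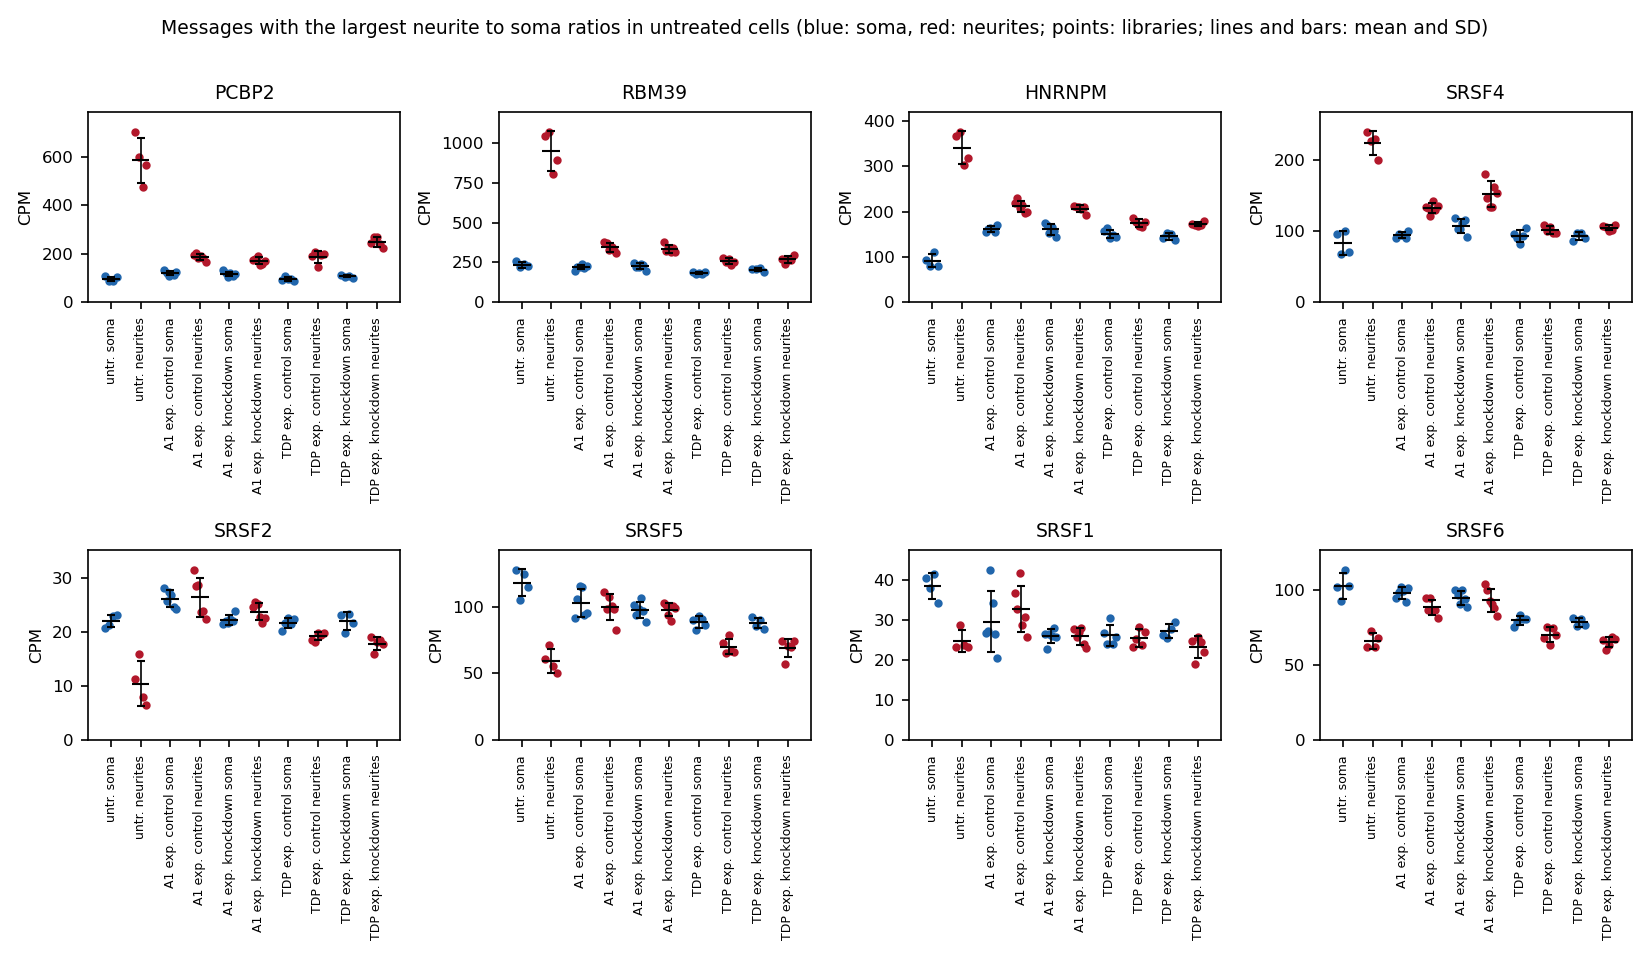
CPM of the 4 members with the highest and the 4 with the lowest neurite to soma ratios in untreated cells, in every library (untr., untreated; A1 exp., HNRNPA1 experiment; TDP exp., TDP-43 experiment), with mean and SD. Soma is blue and neurites are red. Untreated neurite libraries of PCBP2 lie between 478 and 702 CPM and those of RBM39 between 802 and 1065 CPM, above all soma libraries of both genes. Levels are scaled within each experiment.

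The members' ratios were unequal across sets also by a direct test. The ratio in untreated cells minus the mean ratio of both control sets was called higher for 7 members and lower for 19 by edgeR, against 41.4% of all genes called, 13.8% higher and 27.6% lower. Its median was −0.23 over the members and −0.47 over all genes. PCBP2 (1.57 ± 0.11), HNRNPM (1.34 ± 0.09), RBM39 (1.202 ± 0.09), PCBP1 (1.09 ± 0.17), SRSF4 (0.88 ± 0.11), HNRNPLL (0.48 ± 0.09) and SRSF9 (0.47 ± 0.13) had a higher ratio in untreated cells. With scaling by total counts HNRNPLL and SRSF9 turned to −0.03 each. SRSF2 (−1.32 ± 0.16), SRSF5 (−1.05 ± 0.11), TRA2B (−0.92 ± 0.08), HNRNPH1 (−0.83 ± 0.09) and PTBP1 (−0.83 ± 0.13) were among those with a lower ratio. By role, 8 of 12 SR proteins had a lower ratio and 2 a higher one, and of the 17 hnRNPs 8 had a lower and 2 a higher one. Kit version and experiment cannot be told apart here. Across the 38 members, which share libraries, the log2 ratios in untreated cells had Pearson r = 0.55 with those in the HNRNPA1 controls (Spearman 0.33) and 0.64 with those in the TDP-43 controls (Spearman 0.46). The ratios of both control sets had r = 0.81 (Spearman 0.82), given as a description.

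On the TMM scale the members summed to more in neurites, and with total counts to less. Their summed level in untreated cells was 4318 ± 325 CPM in soma and 5927 ± 529 CPM in neurites (SD, n = 4 each), of which the 4 SR-related genes gave 546.9 and 1224 CPM. Most of this rise lay in RBM39, PCBP2 and HNRNPM. RBM39 ran from 219.7 to 262 CPM in soma and from 802 to 1065 CPM in neurites. PCBP2 ran from 86.6 to 107 and from 478 to 702 CPM, and HNRNPM from 81.0 to 112 and from 301 to 374.5 CPM. TRA2B and SRRM4 were lower in neurites, and the members' median log2 ratio was −0.04. The SR proteins' sum was near equal in both fractions, at 936 ± 77.3 and 927 ± 56.1 CPM. In HNRNPA1 control cells the sum of all members was 5029 ± 184 CPM in soma and 5671 ± 251 CPM in neurites (n = 6 each), and in the TDP-43 controls 4388 ± 89.0 and 4645 ± 83.1 CPM (n = 5 each). With scaling by total counts the order of every pair is the reverse, for instance 6640 CPM in untreated soma and 3837 CPM in untreated neurites.

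Per kb of annotated exons, HNRNPK, a poly(C)-binding regulator of transcription, splicing and translation, had the highest level of all members in untreated soma, at 62.0 ± 4.09 CPM per kb (SD, n = 4). HNRNPDL (42.1 ± 3.98) and HNRNPC (36.0 ± 3.86) followed, with mean ± SD intervals that overlap, and PTBP1 was lowest at 3.33 ± 0.33 CPM per kb. In untreated neurites RBM39 (79.6 ± 10.5) and PCBP2 (73.9 ± 11.7) led, and did not differ beyond their spread. HNRNPK ranked first and HNRNPAB second in both fractions of both control sets, and SRSF12 ranked last in each.

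HNRNPA1 knockdown moved few members, and by small amounts. In soma SRSF2 and PTBP2 fell and none rose, 2 of 38 members beside 7.09% of all genes called by edgeR (3.79% higher and 3.3% lower). In neurites PCBP1, HNRNPF and SRSF4 rose and none fell, 3 of 38 beside 16.2% of all genes (8.96% higher and 7.21% lower). No member passed a 1.5-fold change in either knockdown, and the largest log2 change was 0.44.

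SRSF2 ran from 24.3 to 28.1 CPM in control soma (median 26.3) and from 21.4 to 23.9 CPM in knockdown soma (median 22.0), without overlap (−0.23 ± 0.07, edgeR adjusted p = 0.0296). PTBP2 ran from 141 to 164 CPM (median 143) and from 130.3 to 137 CPM (median 132), also without overlap (−0.16 ± 0.05, edgeR adjusted p = 0.0475). Neither call is firm: SRSF2 was lost in 7 and PTBP2 in 16 of the 24 fits that left out 1 library, and the count ran from 0 to 3 (0 or 1 in 15 of these fits).

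In neurites PCBP1 ran from 23.9 to 34.2 CPM in controls (median 28.1) and from 30.6 to 34.9 CPM after knockdown (median 34.3), with overlap (0.28 ± 0.09, edgeR adjusted p = 0.0239). This call ended without control neurite sample 1 or 3 (edgeR adjusted p = 0.0805 and 0.104). HNRNPF ran from 78.9 to 88.3 CPM in controls (median 84.6) and from 85.6 to 109 CPM after knockdown (median 103), with overlap (0.25 ± 0.06, edgeR adjusted p = 0.0019). SRSF4 ran from 121 to 142 CPM in controls and from 133 to 180.5 CPM after knockdown, with overlap (0.20 ± 0.06, edgeR adjusted p = 0.0335, lost in 7 of 24 fits). The count of called members in neurites was 1 without control neurite sample 1 or 3, and 5 without control neurite sample 6 or control soma sample 3. With scaling by total counts no member was higher and 17 were lower in neurites, beside 605 higher and 3825 lower of all 19812 genes.

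The interaction of knockdown and fraction called 0 of 38 members by edgeR, beside 0.177% of all genes (0.0454% higher and 0.131% lower), and 1 member at an unadjusted p under 0.05. Limma-voom and DESeq2 also called 0. Neural progenitor markers summed to 268 CPM in control soma and 354.5 CPM in knockdown soma, and to 529 and 682 CPM in neurites. NES made up most of this difference (220.9 against 306.9 CPM in soma and 465.1 against 614.3 CPM in neurites). Its genes did not move together: NES and PAX6 rose in both fractions, while SOX9 fell in soma (8.63 against 6.00 CPM) and SOX1 fell in neurites (9.48 against 5.72 CPM). The part of these markers in the changes was not tested.

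TDP-43 knockdown moved more members, most of them upward. In soma SRSF11, HNRNPUL2, HNRNPC and HNRNPR rose and SRSF8 fell, 5 of 38 beside 18.9% of all genes called by edgeR (9.41% higher and 9.53% lower). In neurites HNRNPUL2, PCBP2, PCBP1, SYNCRIP, HNRNPUL1, SRSF11 and HNRNPR rose, and TRA2A, TRA2B and HNRNPL fell, 10 of 38 beside 24.8% of all genes called (14% higher and 10.9% lower). Both shares are close to or under the background. HNRNPUL2, HNRNPR and SRSF11 rose in both fractions, and 22 of the 38 members were called in none of the 4 knockdown comparisons. The shares of all genes that did the same were not counted, so neither count sets the members apart from other genes. Neural progenitor markers summed to 225 CPM in control soma and 263.5 CPM in knockdown soma, and to 404 and 499 CPM in neurites, with NES higher and SOX9 and VIM lower in both fractions. Neuronal markers summed to 6287 and 6238 CPM in soma and to 8173 and 10033 CPM in neurites, where NEFL and NEFM were higher and STMN2 lower (596.4 against 222.9 CPM). The part of these markers in the changes was not tested.

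**Figure D4:**
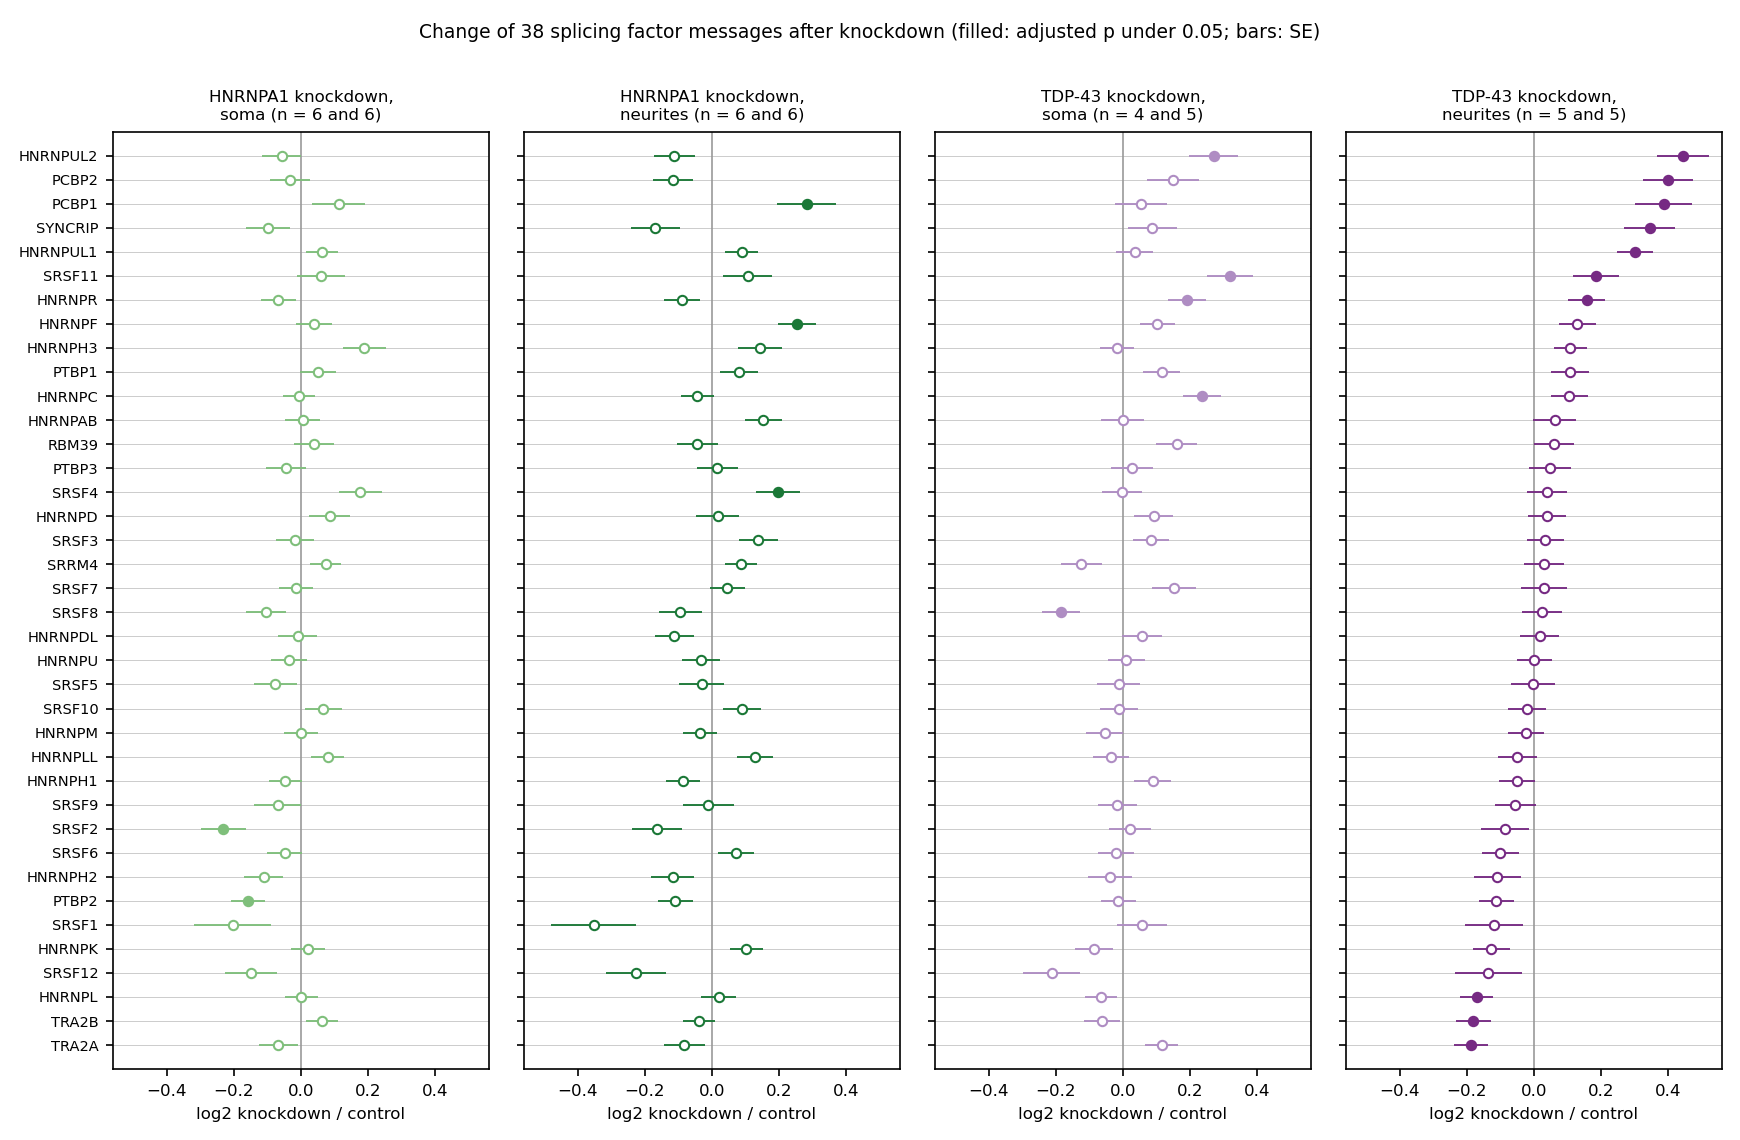
Log2 change of each member after HNRNPA1 knockdown and after TDP-43 knockdown, in soma and in neurites, against the non-targeting controls of the same experiment, with SE. Filled points passed an edgeR adjusted p under 0.05. Values lie within 0.44 of 0 on either side, and HNRNPUL2 in neurites after TDP-43 knockdown is the largest.

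HNRNPUL2, a relative of the nuclear scaffold protein HNRNPU, rose in both fractions. Control soma libraries held 44.7, 43.76, 38.03, 43.87 and 38.8 CPM and knockdown soma libraries 52.6, 49.3, 51.4 and 48.6 CPM, without overlap (0.27 ± 0.07, edgeR adjusted p = 0.0089). Control neurite libraries held 45.1, 47.0, 31.0, 39.6 and 45.0 CPM and knockdown neurite libraries 55.0, 55.4, 60.4, 58.5 and 57.2 CPM. All knockdown libraries lie above all control libraries, and the log2 change was 0.44 ± 0.08 (edgeR adjusted p = 9e-05). Without control neurite sample 4, the lowest library, it was 0.37 (edgeR adjusted p = 6.9e-05). Exons of HNRNPUL2 overlap the readthrough transcript HNRNPUL2-BSCL2 on the same strand, and 5.88% of its nonzero values are fractional.

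HNRNPR, an hnRNP that binds messages in axons and is related to SYNCRIP, held 152, 148, 148, 145 and 142 CPM in control soma and 171, 165, 172 and 164 CPM in knockdown soma, without overlap (0.19 ± 0.06, edgeR adjusted p = 0.0156). In neurites it held 152, 142, 136, 145 and 157 CPM in controls and 163, 143, 160.5, 171 and 176 CPM after knockdown, with overlap (0.16 ± 0.06, edgeR adjusted p = 0.0362). The soma call ended without knockdown soma sample 3 (edgeR adjusted p = 0.0553). The neurite call ended in 6 of 19 fits, among them that without control neurite sample 4 (0.14, edgeR adjusted p = 0.0696). SYNCRIP itself held 45.4, 47.3, 32.3, 43.89 and 44.1 CPM in control neurites and 50.2, 56.6, 51.7, 60.1 and 54.5 CPM in knockdown neurites, without overlap (0.34 ± 0.08, edgeR adjusted p = 0.00123). Without control neurite sample 4 it changed by 0.27 (edgeR adjusted p = 0.0019).

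HNRNPC held 188, 181, 199.6, 169.9 and 172 CPM in control soma and 226, 208, 217 and 206 CPM in knockdown soma, without overlap (0.23 ± 0.06, edgeR adjusted p = 0.00327). HNRNPUL1, another relative of HNRNPU, held 211, 214, 188, 201 and 208 CPM in control neurites and 249.9, 256, 243, 251 and 260.1 CPM in knockdown neurites, without overlap (0.30 ± 0.05, edgeR adjusted p = 0.000121). In soma it held 188, 203, 184, 184 and 171 CPM in controls and 202, 190.2, 182 and 187 CPM after knockdown, with overlap. HNRNPL, which binds CA-rich elements, fell in neurites, from 89.8, 82.97, 96.9, 85.9 and 88.1 CPM to 78.5, 75.2, 81.7, 81.4 and 76.2 CPM, without overlap (−0.17 ± 0.05, edgeR adjusted p = 0.0115).

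Both poly(C)-binding proteins rose in neurites. PCBP2 held 192, 207, 146, 197 and 198 CPM in control neurites and 245, 269, 269, 240.4 and 223 CPM in knockdown neurites, without overlap (0.40 ± 0.07, edgeR adjusted p = 0.000209, and 0.32 without control neurite sample 4). PCBP1 held 25.6, 26.6, 20.9, 20.9 and 24.2 CPM and 32.7, 28.9, 32.6, 29.2 and 32.5 CPM, also without overlap (0.39 ± 0.08, edgeR adjusted p = 0.0011, and 0.35 without control neurite sample 4). None of the PTB proteins and not SRRM4 was called in either fraction. The per-kb quotient of PTBP2 to PTBP1 was 1.178 ± 0.065 in knockdown soma (SD, n = 4) and 0.866 ± 0.071 in knockdown neurites (n = 5).

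Among the SR proteins SRSF11 rose most in soma, from 131, 121, 128, 127 and 142 CPM to 164, 162, 175 and 147 CPM, without overlap (0.32 ± 0.07, edgeR adjusted p = 0.00103). In neurites it held 108, 105, 108, 100.2 and 103 CPM in controls and 125, 97.1, 112, 123 and 135 CPM after knockdown, with overlap (0.18 ± 0.07, edgeR adjusted p = 0.0487). This second call ended in 13 of 19 fits without 1 library. SRSF8 fell in soma, from 69.7, 70.6, 66.8, 64.6 and 66.6 CPM to 55.1, 58.7, 63.3 and 60.9 CPM, without overlap (−0.18 ± 0.06, edgeR adjusted p = 0.0211, lost in 4 of 19 fits). TRA2A and TRA2B fell in neurites. TRA2A held 69.9, 68.5, 67.9, 68.4 and 65.4 CPM in controls and 62.1, 57.2, 61.3, 58.7 and 58.9 CPM after knockdown, without overlap (−0.19 ± 0.05, edgeR adjusted p = 0.00737). TRA2B held 148, 142, 167, 142 and 143 CPM and 130.4, 124, 128, 133 and 137 CPM, also without overlap (−0.18 ± 0.05, edgeR adjusted p = 0.0119). With scaling by total counts no member was called in soma, and in neurites 4 were called higher and none lower. Of all 22014 genes 775 were then higher and 902 lower in soma, and 1792 higher and 788 lower in neurites.

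**Figure D5:**
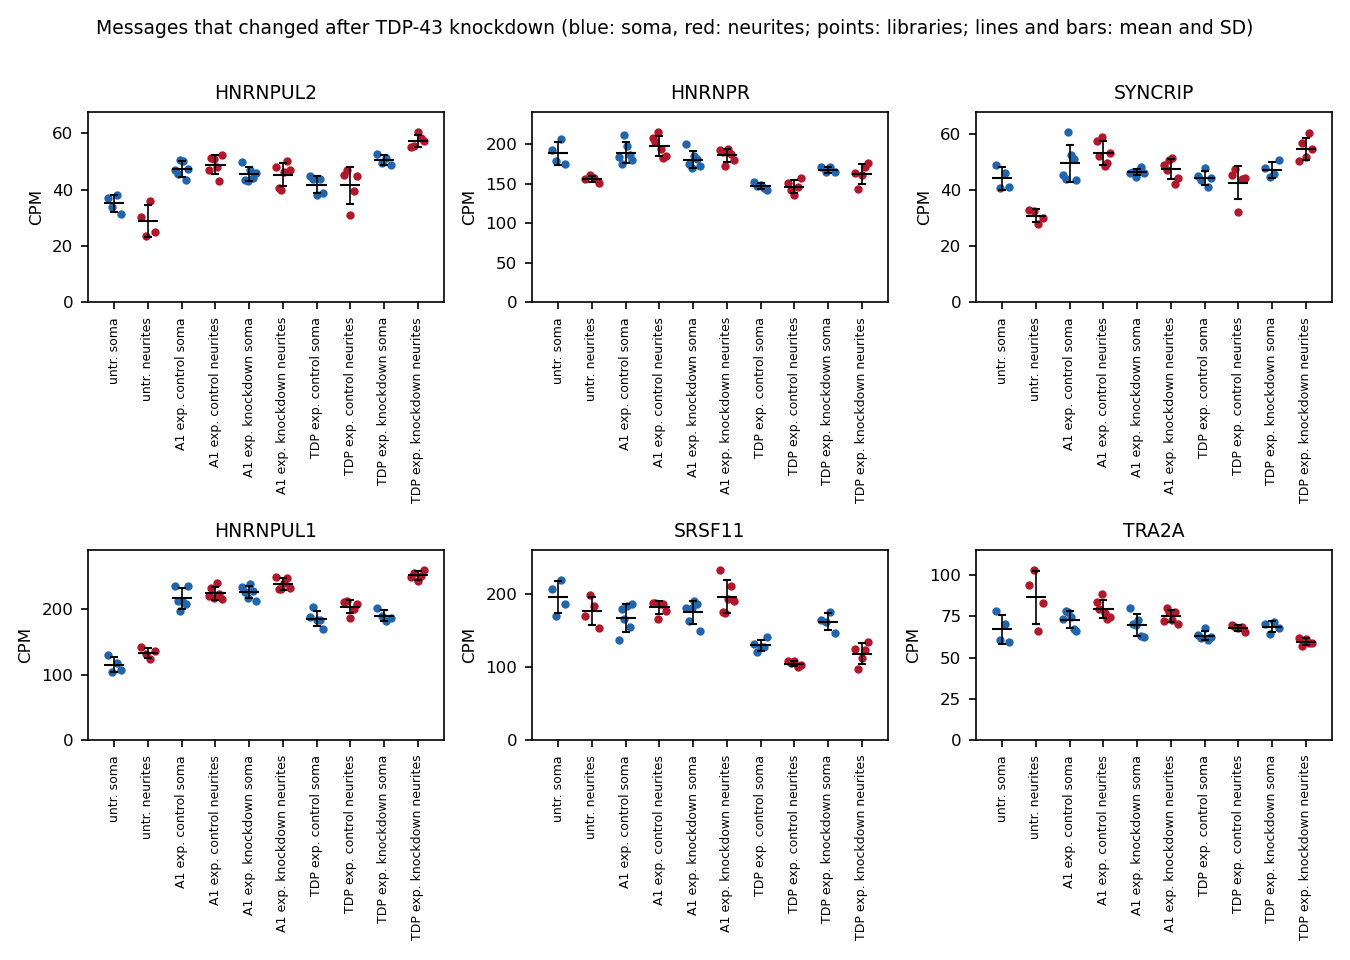
CPM of 6 members that changed after TDP-43 knockdown, in every library (untr., untreated; A1 exp., HNRNPA1 experiment; TDP exp., TDP-43 experiment), with mean and SD. Soma is blue and neurites are red. In TDP-43 knockdown neurites HNRNPUL2 lies between 55.0 and 60.4 CPM, above its 5 control libraries, of which sample 4 is lowest at 31.0 CPM. Levels are scaled within each experiment.

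A direct test of whether the change differed between fractions called TRA2A and HNRNPUL1, 2 of 38 members beside 10.5% of all genes (5.81% higher and 4.67% lower). TRA2A changed more negatively in neurites than in soma, where its libraries held 63.7, 61.8, 68.0, 60.8 and 62.8 CPM in controls and 70.6, 64.5, 71.8 and 68.1 CPM after knockdown (difference −0.30 ± 0.07, edgeR adjusted p = 0.0065). HNRNPUL1 changed more positively in neurites (0.27 ± 0.08, edgeR adjusted p = 0.0256), a call lost without knockdown soma sample 3 or 4 or control soma sample 2 (edgeR adjusted p = 0.0679, 0.053 and 0.0563). The other 8 members called in neurites were not shown to differ between fractions.

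The 2 knockdowns were also set against each other. In soma the TDP-43 change exceeded the HNRNPA1 change for HNRNPUL2 (0.35 ± 0.10, edgeR adjusted p = 0.0249), HNRNPR (0.28 ± 0.09, edgeR adjusted p = 0.0308) and HNRNPC (0.26 ± 0.08, edgeR adjusted p = 0.0402, and 0.104 with sample number as a block), 3 of 38 beside 7.64% of all genes (4.19% higher and 3.45% lower). All 3 calls ended without control soma sample 3 of the HNRNPA1 experiment, and the count fell to 0 or 1 in 10 of the fits without 1 library. In neurites it did so for HNRNPUL2 (0.59 ± 0.11), SYNCRIP (0.54 ± 0.11), PCBP2 (0.54 ± 0.11), HNRNPR (0.28 ± 0.09) and HNRNPUL1 (0.24 ± 0.08), 5 of 38 beside 10.8% of all genes (7.21% higher and 3.57% lower). Without control neurite sample 4 of the TDP-43 experiment 3 of these remained, HNRNPUL2, SYNCRIP and PCBP2, while HNRNPR (0.25, edgeR adjusted p = 0.0591) and HNRNPUL1 (0.21, edgeR adjusted p = 0.101) were not called. The count was 3 also without TDP-43 knockdown neurite sample 4 or 5, HNRNPA1 knockdown neurite sample 3 or control neurite sample 1 of that experiment. No member had a larger change after HNRNPA1 knockdown by this test.

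Genes that work with these proteins were read from lists of related factors. In a list of A group hnRNPs and related RNA-binding proteins, HNRNPA1 was higher in untreated neurites (2.56 ± 0.12) and EWSR1 (−0.59), TARDBP (−0.39) and HNRNPA0 (−0.39) were lower. Of the nonzero values of HNRNPA1 100% are fractional, so some of its reads were divided between genes. This limit also holds for its change after knockdown. In HNRNPA1 knockdown HNRNPA3, a close paralog, rose in soma (0.26 ± 0.06, edgeR adjusted p = 0.0073) and in neurites (0.34 ± 0.06, edgeR adjusted p = 0.0004). EWSR1, which encodes an RNA-binding protein, rose by 0.17 and 0.18. In TDP-43 knockdown neurites TAF15 (−0.19), which encodes another RNA-binding protein, fell.

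SR proteins are phosphorylated by the SRPK and CLK kinases and carried into the nucleus by TNPO3. In untreated neurites 4 of 9 tested genes of this list were higher, led by SRPK1 (1.53) and TNPO3 (1.29), and 4 were lower, led by CLK3 (−1.14) and CLK2 (−0.78), beside 28.7% and 27.8% of all genes. In TDP-43 knockdown neurites 3 of 10 rose, DYRK1A (0.25), SRPK1 (0.21) and TNPO3 (0.15), and 4 fell, led by CLK2 (−0.41), CLK1 (−0.35) and CLK3 (−0.30), beside 14% higher and 10.9% lower over all genes. No gene of this list was called after HNRNPA1 knockdown (7.09% and 16.2% of all genes called in soma and neurites).

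Of 33 core snRNP genes 14 were higher and 7 lower in untreated neurites, led by SNRPD2 (3.03) and SNRNP70 (−0.72), beside 28.7% and 27.8% of all genes. After TDP-43 knockdown 11 of 33 rose and 4 fell in neurites, among them SNRNP200 (0.49), SNRPA (0.45) and SNRPN (−0.32), where 14% of all genes were higher and 10.9% lower. In soma SNRPA (0.41) and PRPF6 (0.16) rose and none fell, 2 of 33 beside 18.9% of all genes called. After HNRNPA1 knockdown 6 rose and 1 fell in neurites, led by SF3A2 (0.34), beside 16.2% of all genes called, and none was called in soma, beside 7.09%.

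Neuronal and other splicing regulators were lower in untreated neurites for 16 of 32 tested genes and higher for 6, with RBFOX1 (−1.26), SRRM3 (−1.22) and KHDRBS2 (1.55) in front, where 27.8% of all genes were lower and 28.7% higher. After TDP-43 knockdown 8 of 32 rose and 6 fell in soma (9.41% and 9.53% of all genes), and 11 rose and 6 fell in neurites (14% and 10.9%). ELAVL3, a neuronal RNA-binding protein, fell by 1.55 in soma (edgeR adjusted p = 1.1e-16) and by 0.77 in neurites of that knockdown. MBNL2 (0.92) and MBNL1 (0.36) rose in soma. After HNRNPA1 knockdown CELF2 fell in soma (−0.24) and neurites (−0.35), and SRRM3, a relative of SRRM4, rose (0.23 and 0.28).

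Of the 10 nonsense-mediated decay genes, whose pathway acts on poison-exon transcripts, UPF2 was higher in untreated neurites (1.92), HNRNPA1 controls (0.59) and TDP-43 controls (0.47). In the same order 28.7%, 23.5% and 24.1% of all genes were called higher. UPF2 is a single gene of the list, and the decay genes did not share its direction. UPF1 averaged 21.8 CPM in soma and 15.5 CPM in neurites of untreated cells. Its means were 88.7 and 74.7 CPM in the HNRNPA1 controls and 92.4 and 66.4 CPM in the TDP-43 controls. UPF2 also rose after TDP-43 knockdown in soma (0.43) and neurites (0.47), where 9.41% and 14% of all genes were called higher. After HNRNPA1 knockdown UPF3B (0.30) and UPF3A (0.24) rose in soma, and 4 of 10 rose in neurites, led by SMG9 (0.34). Over all genes 3.79% were higher in that soma comparison and 8.96% in neurites. The counts are per gene and do not separate poison-exon from coding transcripts.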

How the data were processed

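RNA-seq of soma and neurite fractions was analysed from a deposited table of expected counts per gene, which the authors made with STAR 2.7.11b and featureCounts of Subread 2.0.6 on hg38, per the submitters' processing notes. Strand setting, annotation release and treatment of multi-mapping reads are not given in the labels or notes read here, so reads of antisense or overlapping genes cannot be told apart (10 members overlap other exons on the same strand, 13 on the opposite one). Of nonzero values 81.1% are whole (tolerance 0.005). Counts were rounded. Symbols came from a gene name list (62666 identifiers), positions from GENCODE release 29 (58228 identifiers). Libraries under 100000 counts were left out. None of 108 within-group pairs was a copy (chi-square per degree of freedom from 1.91 to 161.3).

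Each experiment was fitted with edgeR 4.0.16 in R 4.3.3 (TMM, filterByExpr, 1 coefficient per group, quasi-likelihood F test). Differences between knockdowns and between untreated and control ratios came from a fit of all libraries. Its fits without 1 library kept the dispersion trend of the full fit. Tests are 2-sided and Benjamini-Hochberg adjusted over all genes, with calls under 0.05. SE is the log2 change over the square root of F. The scripts were tested on simulated data. Alternatives were total counts, RLE, no filter, 7SL and mitochondrial RNA left out, DESeq2 1.42.0, limma-voom (limma 3.58.1), a replicate block and each library left out. The labels do not say whether sample numbers pair libraries. Numbers were taken to pair TDP-43 knockdown with control soma. There all 3 same-numbered pairs of deviations from the group means correlated over 0.1 (0.155 to 0.315). The same held for all 4 of TDP-43 knockdown soma with neurites (0.149 to 0.29). These correlations are weak, and those of TDP-43 knockdown with control neurites were negative (−0.223 to −0.0138). The block left the calls of the soma comparison and of the interaction as they were and ended 1 call in the comparison of knockdowns in soma.

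Values are printed for up to 4 called members with the largest change in each direction of the first 9 comparisons and for PTBP1, PTBP2 and SRRM4, and up to 3 genes per direction of each related list. Members and lists were chosen with earlier results of these data known. Start windows are from the RefSeq promoter table (GRCh38.p14), which gave an entry for 35 members.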

Additional observations from a re-analysis of the deposited data

Results flagged for a closer look

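In 20 of 380 groups of 4 to 6 libraries, 1 library lay apart from the rest (Dixon's test), as chance does in about 1 of 20 groups. In the TDP-43 experiment, control neurite sample 4 gave 4 of these, with HNRNPK at 333 CPM (others 292 to 299.7), SYNCRIP at 32.3 (43.89 to 47.31), PCBP2 at 146 (192 to 207) and TRA2B at 167 CPM (142 to 148). Control neurite sample 1 held SRSF12 at 21.3 CPM (17.1 to 17.8) and control soma sample 6 held SRSF9 at 55.9 CPM (60.7 to 62.0). Knockdown neurite sample 2 held HNRNPH3 at 109.9 CPM (123 to 126) and SRSF5 at 57.0 (69.8 to 74.1), knockdown neurite sample 5 held HNRNPU at 366 CPM (332 to 340.4), and knockdown soma sample 2 held SRSF10 at 75.6 CPM (82.0 to 82.5).

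In HNRNPA1 knockdown neurites, sample 1 held HNRNPD at 251 CPM (218 to 229.7) and HNRNPH3 at 212 (163 to 181), sample 2 held PCBP1 at 30.6 CPM (33.8 to 34.9) and sample 3 held HNRNPL at 97.9 CPM (87.77 to 90.65). Sample 6 held HNRNPLL at 43.64 CPM (49.4 to 50.4) and HNRNPM at 192 CPM (205 to 211). Control soma sample 6 held HNRNPL at 104 CPM (85.6 to 91.9). In untreated cells HNRNPDL in neurite sample 6 was 276 CPM (357 to 369), SRSF1 in neurite sample 5 was 28.8 CPM (23.2 to 23.9), and SRSF12 in soma sample 7 was 27.7 CPM (31.2 to 31.8).

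Effects that differed between groups by a test of the difference (edgeR) include the TDP-43 knockdown change in neurites minus soma of HNRNPUL1 (0.27) and TRA2A (−0.30), and the neurite to soma ratio of untreated minus control cells. The latter was higher for PCBP2 (1.57), HNRNPM (1.34), RBM39 (1.202), PCBP1 (1.09), SRSF4 (0.88), HNRNPLL (0.48) and SRSF9 (0.47). It was lower for SRSF2 (−1.32), SRSF5 (−1.05), SRSF1 (−0.94), TRA2B (−0.92), PTBP1 (−0.83), HNRNPH1 (−0.83), SYNCRIP (−0.80), SRSF6 (−0.70), SRSF10 (−0.67), HNRNPK (−0.67), SRSF7 (−0.54), HNRNPR (−0.53), HNRNPUL2 (−0.52), SRSF8 (−0.45), HNRNPH2 (−0.45), SRRM4 (−0.45), HNRNPU (−0.39), SRSF11 (−0.29) and HNRNPH3 (−0.28).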

How the results depend on the processing

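With total counts in place of TMM scaling, called members numbered 27 in the HNRNPA1 controls, 36 in the TDP-43 controls, 1 and 17 after HNRNPA1 knockdown (soma and neurites), 0 and 4 after TDP-43 knockdown, 0 for its interaction and 0 for the difference between knockdowns in soma. Over all genes the calls in the same order were 14040, 16427, 1213, 4430, 1677, 2580, 328 and 1114. Genes tested were 19812 in the HNRNPA1 experiment, 22014 in the TDP-43 experiment and 30081 in the fit of all libraries. The following ratios reversed. In untreated cells they were HNRNPC −0.86, HNRNPD −0.76, HNRNPDL −0.69, HNRNPL −0.97, HNRNPLL −0.70, PTBP3 −0.85, SRSF9 −0.58 and TRA2A −0.91. In the HNRNPA1 controls they were HNRNPC −0.11, HNRNPD −0.052, HNRNPDL −0.043, HNRNPU −0.19, PTBP1 −0.13 and SRSF10 −0.036. In the TDP-43 controls they were HNRNPC −0.31, HNRNPH1 −0.27, HNRNPM −0.39, HNRNPUL1 −0.47, PTBP1 −0.32, SRSF10 −0.38, TRA2B −0.35 and RBM39 −0.13. In the difference between untreated and control ratios HNRNPLL turned to −0.026 and SRSF9 to −0.028. The direction of a small or moderate ratio, such as that of SRSF9 in untreated cells, thus depends on the scaling. Without the low-count filter, 1, 3, 5, 1 and 1 members were called after HNRNPA1 knockdown in soma, after TDP-43 knockdown in soma and neurites, for its interaction and for the difference between knockdowns in soma (the cause was not tested).

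Without single libraries, called members ran from 0 to 3 (HNRNPA1 knockdown soma), 1 to 5 (HNRNPA1 knockdown neurites), 1 to 3 (TDP-43 interaction), 0 to 3 (knockdowns compared, soma) and 3 to 5 (neurites). With the replicate block 7 members were called in HNRNPA1 knockdown neurites (3 without). The rule for pairing was that every same-numbered pair correlates over 0.1. By this rule the numbers were taken to pair TDP-43 knockdown soma with control soma and with knockdown neurites, and no other groups. Untreated soma and neurites fell short of it, at 0.0388 to 0.29 (3 of 4 highest with their own number). There the block kept all 25 calls. Correlations ran from −0.358 to 0.623 in HNRNPA1 controls (3 of 6 highest with their own number) and from −0.223 to −0.0138 in TDP-43 neurites. In TDP-43 neurites the block ended HNRNPR (edgeR adjusted p = 0.0619) and SRSF11 (edgeR adjusted p = 0.0696), and for the difference between knockdowns in soma HNRNPC. The summed level of all members, in CPM with total counts and with 7SL and mitochondrial RNA left out, was 6640 and 4778 in untreated soma, 3837 and 6529 in untreated neurites, 5894 and 5738 in HNRNPA1 control soma, 5204 and 6542 in its control neurites, 5673 and 5737 in its knockdown soma, 4734 and 6571 in its knockdown neurites, 5456 and 5234 in TDP-43 control soma, 3772 and 5534 in its control neurites, 5615 and 5429 in its knockdown soma and 4093 and 5729 in its knockdown neurites.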
